A study of Homo sapiens with 16 samples.

Results

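The genes described here carry out or control the display of peptides by MHC class I molecules: HLA-B, HLA-C, HLA-E and HLA-F, which encode heavy chains, B2M, TAP1, TAP2, TAPBP and NLRC5. They were chosen by name from the pathway and not by a rule on their values, but with earlier results of these data known. All 9 of 9 were present in each of the 4 tables, out of 23396 genes in at least 1 table and 19344 in all 4. The study measured polyadenylated RNA by sequencing in U2OS, a human osteosarcoma cell line, in 16 libraries. Cells received a control siRNA (siControl) or an siRNA against RFX7 (siRFX7), a transcription factor of the RFX family, and then the solvent DMSO or 10 µM Nutlin-3a for 24 h. Nutlin-3a is a small molecule that keeps MDM2 from binding p53 and so stabilises p53. The 4 groups, siControl with DMSO, siControl with Nutlin-3a, siRFX7 with DMSO and siRFX7 with Nutlin-3a, had 4 libraries each. All groups share the 1 cell line and transfection with an siRNA. The labels name 1 siRFX7 reagent and no rescue, and nothing in them says that replicates came from separate cultures, so p-values measure the spread between these libraries, which may be technical.

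MHC class I molecules show peptides from inside the cell to CD8 T cells and, in the case of HLA-E, mainly to receptors of natural killer cells. Proteasomes cut proteins into peptides, the TAP1 and TAP2 subunits form the transporter that moves peptides into the endoplasmic reticulum, and tapasin, encoded by TAPBP, links that transporter to empty heavy chains bound to B2M, the invariant light chain. The promoters of class I genes hold the SXY module, a set of boxes bound by RFX5 with RFXANK and RFXAP, by CREB or ATF proteins and by NF-Y, on which the transactivator NLRC5 acts. Upstream of it many of them hold sites for NF-kB and for interferon regulatory factors. TAP1 is also a known p53 target, and RFX7 is a different member of the RFX family from RFX5.

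The stretches of promoter that hold these boxes are printed here so that the members can be compared by the boxes through which the named factors are known to act. They come from RefSeq windows on GRCh38.p14 that run from 250 bases before to 50 after a gene's start, which were given for 7 of the 9 members (not for HLA-E and NLRC5). Capitals mark the CRE core TGACG, the inverted Y box ATTGG, the interferon motif (TTTC, any 2 bases, TTTC) and an NF-kB motif, each on either strand, so that CCAAT is the inverted Y box read on the other strand. The NF-kB motif was added after these sequences had been seen. Coordinates are on the plus strand of the chromosome, and each sequence is written 5′ to 3′ on the gene's own strand.
HLA-B, chr6:31357225-31357362, minus strand: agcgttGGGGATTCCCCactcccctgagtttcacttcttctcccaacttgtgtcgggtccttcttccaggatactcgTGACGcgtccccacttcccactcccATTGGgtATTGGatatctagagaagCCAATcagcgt
HLA-C, chr6:31272138-31272270, minus strand: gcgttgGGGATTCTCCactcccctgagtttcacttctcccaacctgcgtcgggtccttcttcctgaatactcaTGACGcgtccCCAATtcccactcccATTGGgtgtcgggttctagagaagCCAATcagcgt
HLA-F, chr6:29723272-29723387, plus strand: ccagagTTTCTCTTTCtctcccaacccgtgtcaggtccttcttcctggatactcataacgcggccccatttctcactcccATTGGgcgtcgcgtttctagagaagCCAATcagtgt
B2M, chr15:44711367-44711478, plus strand: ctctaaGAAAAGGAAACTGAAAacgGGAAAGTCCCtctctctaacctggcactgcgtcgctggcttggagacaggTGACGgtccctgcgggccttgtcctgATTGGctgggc
TAP1, chr6:32853761-32853844, minus strand: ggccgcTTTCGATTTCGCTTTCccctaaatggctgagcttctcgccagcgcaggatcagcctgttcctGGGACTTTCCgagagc
TAP2, chr6:32838764-32838803, minus strand: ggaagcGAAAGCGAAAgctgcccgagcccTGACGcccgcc
TAPBP, chr6:33314079-33314140, minus strand: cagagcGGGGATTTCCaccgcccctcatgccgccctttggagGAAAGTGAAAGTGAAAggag

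HLA-B, HLA-C and B2M hold the pair that is typical of the SXY module, a CRE core followed 10 to 40 bases on by an inverted Y box, which 342 of 35116 RefSeq windows hold (0.974%). In HLA-F the inverted Y box is there, and a CRE core is not. The interferon motif is in HLA-F, B2M, TAP1, TAP2 and TAPBP and in 3.57% of all windows, and the NF-kB motif is in HLA-B, HLA-C, B2M, TAP1 and TAPBP and in 5.91% of all windows. The shares of all windows are 24.6% for the CRE core, 34.6% for the inverted Y box and 12.2% for the RFX core GTTGCC, which no member's window holds in these letters. The start sites of TAP1 and PSMB9, a gene of the immunoproteasome, lie 488 bases apart on opposite strands. Counted from the start as 0, the CRE core lies at -106 in HLA-B, -105 in HLA-C, -75 in B2M and -35 in TAP2. A match describes letters and is no measure of binding.

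**Figure D1:**
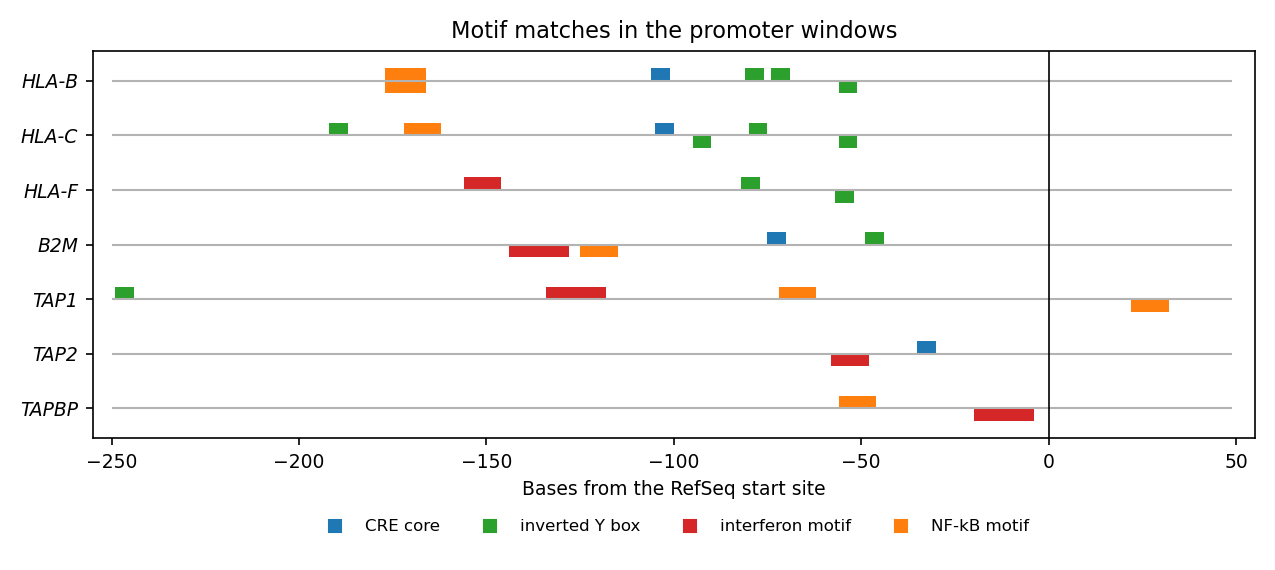
Map of motif matches in the RefSeq promoter windows of 7 members, with bases from the start site on the x axis and 1 gene per row, each box a match coloured by motif, drawn above the line on the gene's strand and below it on the other. HLA-B, HLA-C and B2M hold a CRE core followed by an inverted Y box, and TAP1 and TAPBP hold an interferon motif and an NF-kB motif.

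On GRCh38, in the GENCODE 29 annotation, HLA-F (chr6:29722775-29738528, plus strand), HLA-E (chr6:30489467-30494205, plus), HLA-C (chr6:31268749-31272130, minus), HLA-B (chr6:31269491-31357188, minus), TAP2 (chr6:32821833-32838780, minus), TAP1 (chr6:32845209-32853978, minus) and TAPBP (chr6:33299694-33314387, minus) lie in the MHC region of chromosome 6. B2M is at chr15:44711487-44718877 (plus) and NLRC5 at chr16:56989485-57083531 (plus). Class I heavy chain genes are near-identical in part, and the authors' counting could split or drop reads that fit several of them, so the values of HLA-B, HLA-C, HLA-E and HLA-F are uncertain to that extent. HLA-B and HLA-C share 35 exon bases in this annotation, and 32.3% of the TAP2 exon bases (2064 of 6390) also belong to a model named AL669918.1 on the same strand.

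Base means in the authors' deposited tables summed to between 27946376 and 35311111 normalised counts per library. Of 10 osteoblast or mesenchymal markers 8 were listed, among them VIM, COL1A1, COL1A2 and SPARC, while SP7 and TWIST1 were not. The 8 listed differed widely in level: for siRFX7 over siControl under DMSO, their base means ran from 11.8 to 78050. COL1A2 had a wider SE than COL1A1 (0.61 and 0.07, for siRFX7 minus siControl in the Nutlin-3a log2 fold change). Of 10 blood cell markers, 2 to 5 were listed per table, among them ITGAM and NCAM1, and the highest base mean of those listed was 769 to 1181. Most of it was 1 gene: for siRFX7 over siControl under DMSO, the 2 listed were at 1181 and 76.3. NCAM1 had a narrower SE than ITGAM (0.09 and 0.21, for siRFX7 minus siControl in the Nutlin-3a log2 fold change). CD3E, MS4A1, LYZ and HBB were in none, and PTPRC was in 1 of the authors' deposited tables at a base mean of 5.2. The targeted gene, RFX7, had log2 fold changes with siRFX7 of -2.42 ± 0.07 (SE) with DMSO and -2.37 ± 0.07 with Nutlin-3a, by the authors' deposited tables. In bulk RNA, fewer cells that express a gene and less RNA per cell cannot be told apart.

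Levels per kilobase of transcript were computed from the base means and log2 fold changes of the authors' deposited tables, 1 value per group, because those tables hold no single libraries. In siControl cells under DMSO the order was B2M (14607 normalised counts per kilobase), TAPBP (5996), HLA-B (4817), HLA-C (4391), HLA-E (1466), TAP2 (835), TAP1 (648), HLA-F (159) and NLRC5 (54.1). Each step in that order was wider than the combined spread between libraries that the standard errors imply, which ranged over the 8 neighbouring pairs from 0.08 to 0.19 (SD, log2 scale). The light chain had the highest level in this order, and the transactivator NLRC5 the lowest. The order depends on the transcript length used: with all exons merged, HLA-C (2690) was above B2M (2597), HLA-B (2443) and TAPBP (2239), and TAP1 (399) above TAP2 (326).

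Under Nutlin-3a the siControl levels per kilobase were 15767 for B2M, 6374 for TAPBP, 5983 for HLA-B, 4921 for HLA-C, 1559 for HLA-E, 1192 for TAP1, 722 for TAP2, 164 for HLA-F and 44.8 for NLRC5. Per kilobase of principal transcript, TAP1 was 0.776 of TAP2 in siControl cells under DMSO and 1.65 of it under Nutlin-3a. With all exons merged, TAP1 was above TAP2 already under DMSO, so which subunit is higher there depends on the length used. The authors' counting could also split or drop reads from the exon bases that TAP2 shares with AL669918.1, which was not tested. In siRFX7 cells the levels per kilobase under DMSO and Nutlin-3a were 504 and 977 for TAP1, 805 and 738 for TAP2, 4469 and 5053 for HLA-B, 4085 and 4286 for HLA-C, and 1235 and 1150 for HLA-E. They were 99.4 and 107 for HLA-F, 47.1 and 44.5 for NLRC5, 14352 and 14353 for B2M, and 6112 and 6204 for TAPBP. The ratio of TAP1 to TAP2 in siRFX7 cells was 0.625 under DMSO and 1.32 under Nutlin-3a. These are levels of message from the principal transcripts and not of protein.

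**Figure D2:**
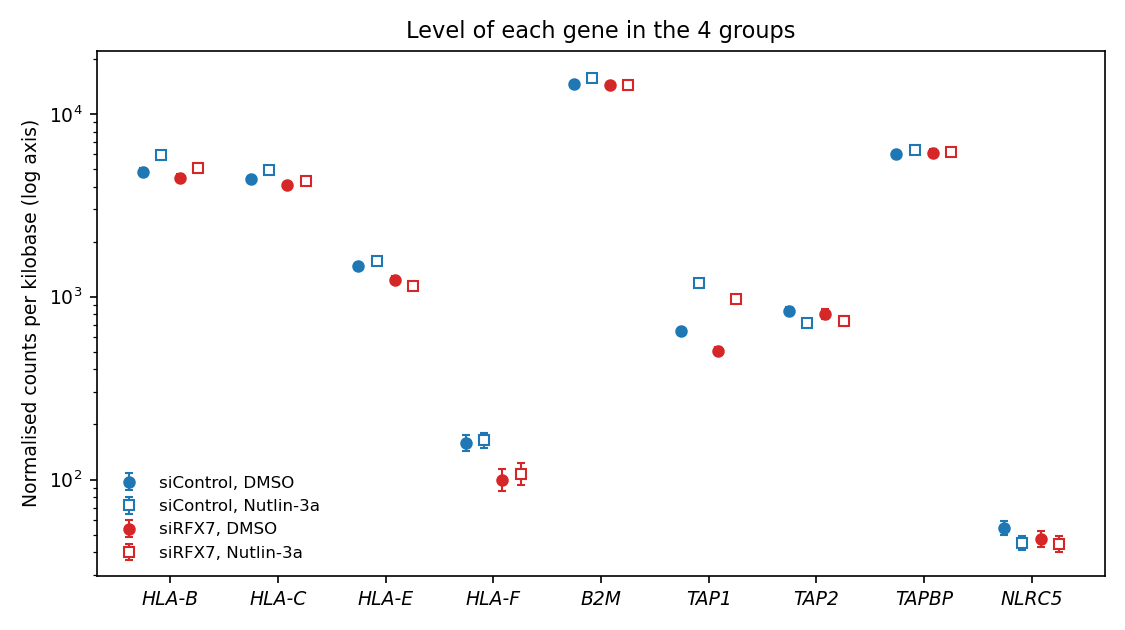
Level of each member in the 4 groups, in normalised counts per kilobase of principal transcript on a log axis, 1 point per group, with bars for the library SD that the standard errors imply, computed from the authors' deposited tables. With this length TAP1 lies below TAP2 in both DMSO groups and above it in both Nutlin-3a groups (with all exons merged it is above TAP2 in siControl cells under DMSO too), and HLA-F lies lower in both siRFX7 groups.

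The first comparison asks what Nutlin-3a changed in cells with the control siRNA. TAP1 rose 1.84-fold, and the heavy chain messages HLA-B and HLA-C and the light chain B2M rose by less, while TAP2 and NLRC5 fell. Of 9 members, 4 were higher and 2 lower at an adjusted p under 0.05 in the authors' deposited table (DESeq2 Wald test, Benjamini-Hochberg adjustment over all genes), where 18.3% of all genes were called higher and 19.6% lower. The members' median log2 fold change was 0.09 and that of all genes 0.01 in the authors' deposited table.

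TAP1 went from 1917 to 3527 normalised counts by the authors' deposited table, a log2 fold change of 0.88 ± 0.04 (SE, adjusted p 8.15e-87), which is 14.1 times the spread between libraries. HLA-B followed with 0.31 ± 0.04 in the authors' deposited table, or 24.2% (adjusted p 1.96e-11). HLA-C was at 0.16 ± 0.04 (adjusted p 3.68e-05) in the authors' deposited table. TAP1 and TAP2 encode the subunits of 1 transporter, and their calls were in opposite directions. TAP2 fell by 0.21 ± 0.05 on the log2 scale (adjusted p 2.05e-05) and NLRC5 fell by 0.27 ± 0.09 (adjusted p 0.00867) in the authors' deposited table. B2M was at 0.11 ± 0.04 (adjusted p 0.0150) in the authors' deposited table. HLA-E (0.09 ± 0.04, adjusted p 0.0676), HLA-F (0.04 ± 0.10, adjusted p 0.792) and TAPBP (0.09 ± 0.05, adjusted p 0.122) did not pass the test in the authors' deposited table. At a size of at least 0.25 on the log2 scale, 3 members were called in place of 6.

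In siRFX7 cells Nutlin-3a raised TAP1 1.94-fold and HLA-B by less, and no member was called lower. That is 2 higher and 0 lower of 9 in the authors' deposited table, where 18.7% of all genes were called higher and 20.3% lower. TAP1 was at 0.96 ± 0.05 (adjusted p 9.51e-78) and HLA-B at 0.18 ± 0.05 (adjusted p 0.00123) in the authors' deposited table. B2M was at 0.00 ± 0.04 (adjusted p 0.998), HLA-C at 0.07 ± 0.04 (adjusted p 0.209) and HLA-E at -0.10 ± 0.05 (adjusted p 0.105) in the authors' deposited table. TAP2 was at -0.13 ± 0.06, NLRC5 at -0.08 ± 0.10, HLA-F at 0.11 ± 0.14 and TAPBP at 0.02 ± 0.05, none past the test, in the authors' deposited table. The members' median was 0.02 against 0.01 for all genes in the authors' deposited table. With the same minimum size of 0.25, 1 member was called in place of 2.

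The next comparison asks what siRFX7 changed without p53 activation. HLA-F, a heavy chain with a low level here, fell by 36.9%, and TAP1, HLA-E and HLA-C fell by less. Under DMSO, 4 of 9 members were lower and 0 higher in the authors' deposited table, where 17.5% of all genes were called lower and 19.9% higher, and the members' median was -0.11 against -0.00 for all genes. HLA-F went from 259 to 163 normalised counts, at -0.66 ± 0.12 (adjusted p 4.52e-07), by the authors' deposited tables. TAP1 was at -0.36 ± 0.05 (adjusted p 1.86e-11), HLA-E at -0.24 ± 0.04 (adjusted p 1.64e-07) and HLA-C at -0.10 ± 0.04 (adjusted p 0.0193) in the authors' deposited table. HLA-B, at -0.11 ± 0.05, missed the threshold (adjusted p 0.0572) in the authors' deposited table, and so did NLRC5, at -0.20 ± 0.09 (adjusted p 0.0671). TAP2 (-0.05 ± 0.04), B2M (-0.03 ± 0.04) and TAPBP (0.03 ± 0.05) did not pass the test in the authors' deposited table.

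With Nutlin-3a present, siRFX7 lowered 6 of 9 members, among them every heavy chain of the group, the light chain B2M and TAP1. The authors' deposited table called 0 members higher, and it called 15.4% of all genes lower and 17.2% higher. HLA-F was at -0.60 ± 0.12 (adjusted p 5.95e-06), HLA-E at -0.44 ± 0.05 (adjusted p 2.00e-17) and TAP1 at -0.28 ± 0.04 (adjusted p 1.22e-09) in the authors' deposited table. HLA-B was at -0.24 ± 0.05 (adjusted p 3.31e-06), HLA-C at -0.20 ± 0.04 (adjusted p 1.45e-05) and B2M at -0.13 ± 0.04 (adjusted p 0.00300) in the authors' deposited table. TAP2 (0.03 ± 0.06), TAPBP (-0.04 ± 0.04) and NLRC5 (-0.01 ± 0.10) did not pass the test in the authors' deposited table. The median was -0.20 for the members and -0.01 for all genes in the authors' deposited table. HLA-C, HLA-E, HLA-F and TAP1, 4 of 9, were called lower in each of the authors' deposited siRFX7 tables. The share of all genes called lower in both was not computed, so this count only describes the members. At a size of at least 0.25 on the log2 scale, the calls under DMSO went from 4 to 2 and those under Nutlin-3a from 6 to 3.

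**Figure D3:**
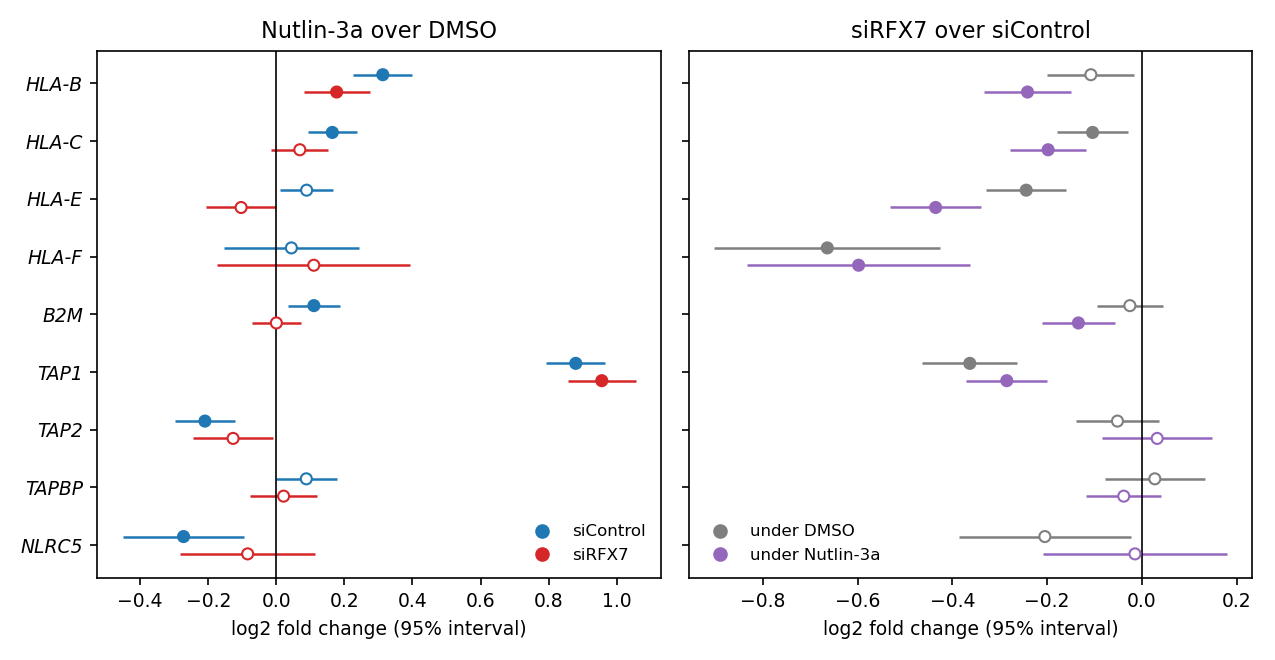
Log2 fold changes of the 9 members in the authors' deposited tables with 95% intervals, on the left for Nutlin-3a over DMSO and on the right for siRFX7 over siControl, filled where the adjusted p is under 0.05. TAP1 stands highest in both Nutlin-3a comparisons, and HLA-F lowest in both siRFX7 comparisons.

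The last comparison asks whether the Nutlin-3a response of a member differed between siRFX7 and siControl cells. No member passed the test of that difference: 0 of 9 had an adjusted p under 0.05 (normal test on the difference of the log2 fold changes of the authors' deposited tables, Benjamini-Hochberg adjustment over 21339 genes), where 0.937% of all genes did. At an unadjusted p under 0.05 the count was 3 of 9, and 1349 of 21339 genes (6.32%) passed that. HLA-E had the widest gap below 0, -0.19 ± 0.07 (95% interval -0.32 to -0.06, adjusted p 0.202), followed by HLA-B at -0.14 ± 0.07 (-0.27 to -0.01, adjusted p 0.741) and B2M at -0.11 ± 0.05 (-0.21 to -0.01, adjusted p 0.728), computed from the authors' deposited tables. For TAP1 the difference was 0.08 ± 0.07 (95% interval -0.05 to 0.21) from the authors' deposited tables, so its rise was not shown to differ. HLA-C was at -0.10 ± 0.06, TAPBP at -0.07 ± 0.07, HLA-F at 0.07 ± 0.18, TAP2 at 0.08 ± 0.08 and NLRC5 at 0.19 ± 0.14, from the authors' deposited tables. The same difference can be read as how far the siRFX7 effect with Nutlin-3a lies from that with DMSO, and the siRFX7 and Nutlin-3a tables share libraries, so they do not add evidence to each other.

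**Figure D4:**
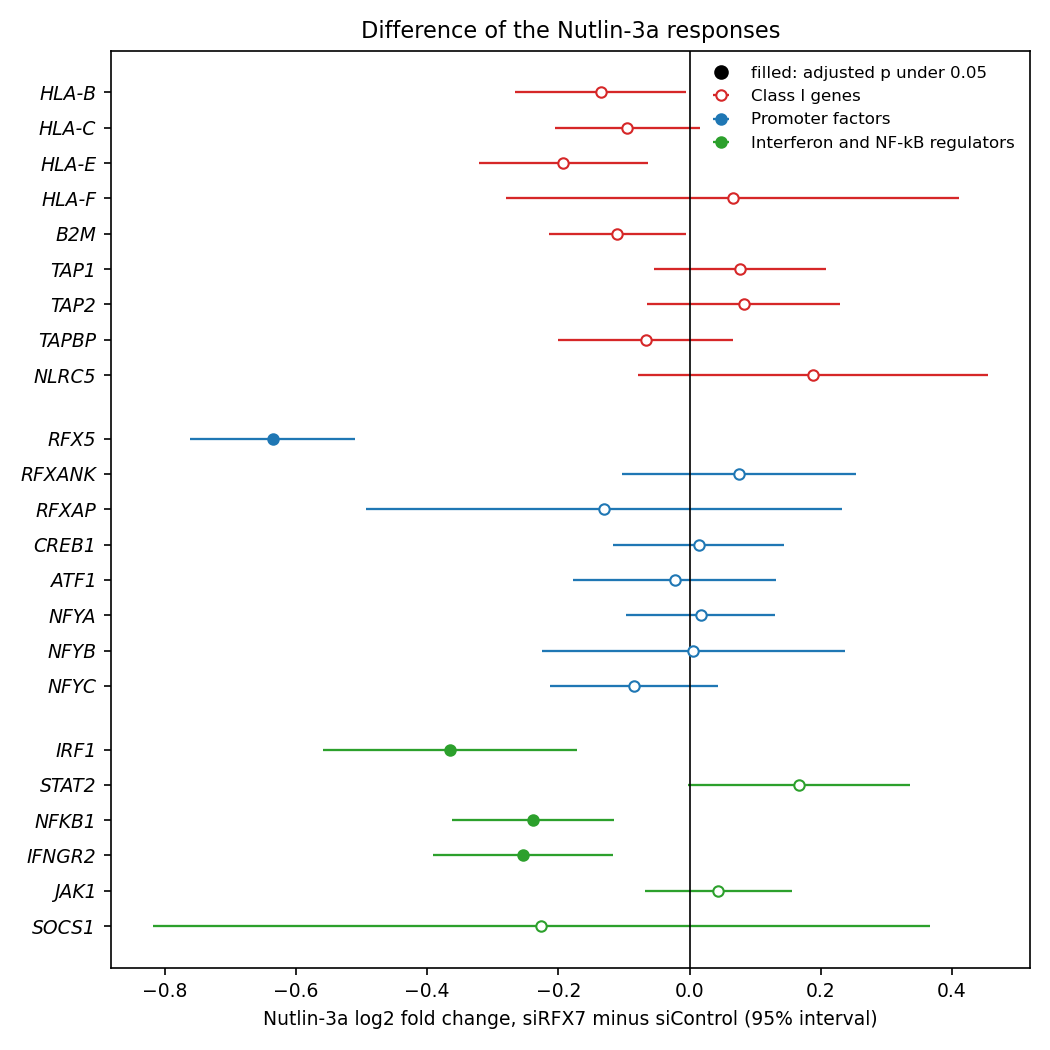
Difference of the Nutlin-3a log2 fold changes, siRFX7 minus siControl, with 95% intervals, for the members, the promoter factors and those interferon and NF-kB regulators that were called or named by the rule, computed from the authors' deposited tables (CIITA is not drawn, since its interval is far wider). No member is filled, while RFX5, IRF1, NFKB1 and IFNGR2 are.

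The other genes of the pathway were taken from 5 lists, whose counts are to be read beside the shares of all genes called. With Nutlin-3a, 18.3% of all genes were called higher and 19.6% lower in siControl, and 18.7% and 20.3% in siRFX7. With siRFX7, 19.9% were called higher and 17.5% lower under DMSO, and 17.2% and 15.4% under Nutlin-3a, all in the authors' deposited tables. The difference of the Nutlin-3a responses passed its test in 0.937% of all genes. In peptide supply and loading (11 genes: proteasome subunits and activators, peptidases and chaperones), the authors' deposited tables called 6 higher and 0 lower with Nutlin-3a in siControl, and 5 and 0 in siRFX7. With siRFX7, 7 were lower and 0 higher under DMSO, and 6 and 0 under Nutlin-3a, and all 11 were below 0 in both of these authors' deposited tables. For this list, the authors' deposited tables gave a median of -0.20 with DMSO and -0.25 with Nutlin-3a, against -0.00 and -0.01 for all genes. The share of all genes below 0 in both was not computed. PSMB9, an immunoproteasome subunit whose start lies beside that of TAP1, had log2 fold changes in the authors' deposited tables of -0.68 ± 0.07 (SE) under DMSO and -0.76 ± 0.09 under Nutlin-3a. PSME1, a subunit of the proteasome activator PA28, was at -0.48 ± 0.05 and -0.52 ± 0.06 there, also by the authors' deposited tables. PSMB10, also an immunoproteasome subunit, was at -0.47 ± 0.17 with DMSO, and PSMB8, another, at -0.46 ± 0.07 with Nutlin-3a, by the authors' deposited tables. With Nutlin-3a, ERAP2, a peptidase that trims peptides in the endoplasmic reticulum, was higher by 0.56 ± 0.12 (siControl) and 0.54 ± 0.15 (siRFX7) by the authors' deposited tables. By the authors' deposited tables, TAPBPL, a relative of TAPBP, rose by 0.43 ± 0.10 (siControl) and 0.28 ± 0.11 (siRFX7). PSMB8 rose by 0.24 ± 0.05 in siControl, and CALR, a chaperone of the loading complex, by 0.16 ± 0.03 in siRFX7, with Nutlin-3a by the authors' deposited tables. PSMB9 was at 0.16 with Nutlin-3a in siControl and 0.08 in siRFX7, where TAP1 was at 0.88 and 0.96, by the authors' deposited tables. None of the 11 passed the test of the difference between the Nutlin-3a responses.

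Among the 9 promoter factors of the SXY module, the authors' deposited tables called 2 higher and 3 lower with Nutlin-3a in siControl and 1 higher and 5 lower in siRFX7. RFX5, the subunit of the RFX complex that binds the class I boxes, was higher in siControl by 0.37 ± 0.04 and lower in siRFX7 at -0.27 ± 0.05, a difference of -0.64 ± 0.06 (adjusted p 1.18e-19), from the authors' deposited tables. Its log2 fold changes with siRFX7 were -0.54 ± 0.04 (DMSO) and -1.18 ± 0.04 (Nutlin-3a) by the authors' deposited tables. Its partner RFXAP was higher with siRFX7, at 0.97 ± 0.12 and 0.84 ± 0.13, and RFXANK was at -0.03 ± 0.06 and 0.05 ± 0.06, not past the test, in the authors' deposited tables. NFYB, a subunit of NF-Y, and CREB1 were at -0.51 ± 0.07 and -0.35 ± 0.05 with Nutlin-3a in siControl, both called, in the authors' deposited table. By the authors' deposited table for siRFX7 cells, the Nutlin-3a changes of NFYB and CREB1 were -0.51 ± 0.09 and -0.33 ± 0.05, and RFXANK was higher by 0.33 ± 0.07. With siRFX7, the authors' deposited tables also called NFYB lower under DMSO (-0.20 ± 0.08) and ATF1, a relative of CREB1, lower under Nutlin-3a (-0.17 ± 0.06). CIITA, the class II counterpart of NLRC5, was near the floor (base mean 4.8 and 4.9, authors' deposited Nutlin-3a tables), not called there and not listed in the others. Of the 8 listed in the siRFX7 tables, the authors' deposited tables called 2 higher and 3 lower with DMSO, and 1 and 2 with Nutlin-3a.

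Of 12 interferon and NF-kB regulators, Nutlin-3a gave 2 higher and 1 lower in siControl and 2 and 4 in siRFX7, and siRFX7 gave 1 higher and 6 lower under each treatment, in the authors' deposited tables. STAT2, which carries interferon signals to the nucleus, was higher by 0.49 ± 0.06 and 0.66 ± 0.06 with Nutlin-3a, and lower at -0.42 ± 0.07 and -0.25 ± 0.05 with siRFX7, in the authors' deposited tables. SOCS1, an inhibitor of that signal, was lower in all 4 authors' deposited tables, from -0.84 ± 0.24 to -0.49 ± 0.18. Its level was low: with only genes of base mean 100 or more adjusted, 0 of these regulators were called lower with Nutlin-3a in siControl. JAK1, a kinase of the same pathway whose 3′ UTR holds the heptamer GTATCTA, was at -0.83 ± 0.04 (DMSO) and -0.78 ± 0.03 (Nutlin-3a) with siRFX7 by the authors' deposited tables. The difference of Nutlin-3a responses passed the test in 3 of 12, IRF1, NFKB1 and IFNGR2, all in the lower direction. IRF1, an interferon regulatory factor that acts on class I promoters, was at 0.09 ± 0.06 with Nutlin-3a in siControl (adjusted p 0.263) and -0.28 ± 0.08 in siRFX7 (adjusted p 0.00147), which by the authors' deposited tables differ by -0.37 ± 0.10 (adjusted p 0.0269). With siRFX7 under Nutlin-3a, IRF1 was at -0.52 ± 0.07 by the authors' deposited table. IFNGR2, a chain of the interferon gamma receptor, was the 1 regulator called higher with siRFX7, by 0.49 ± 0.05 (DMSO) and 0.24 ± 0.05 (Nutlin-3a), and was higher by 0.15 ± 0.05 with Nutlin-3a in siControl, by the authors' deposited tables. NFKB1, which encodes an NF-kB subunit, was at -0.29 ± 0.05 with Nutlin-3a in siRFX7 by the authors' deposited table.

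**Figure D5:**
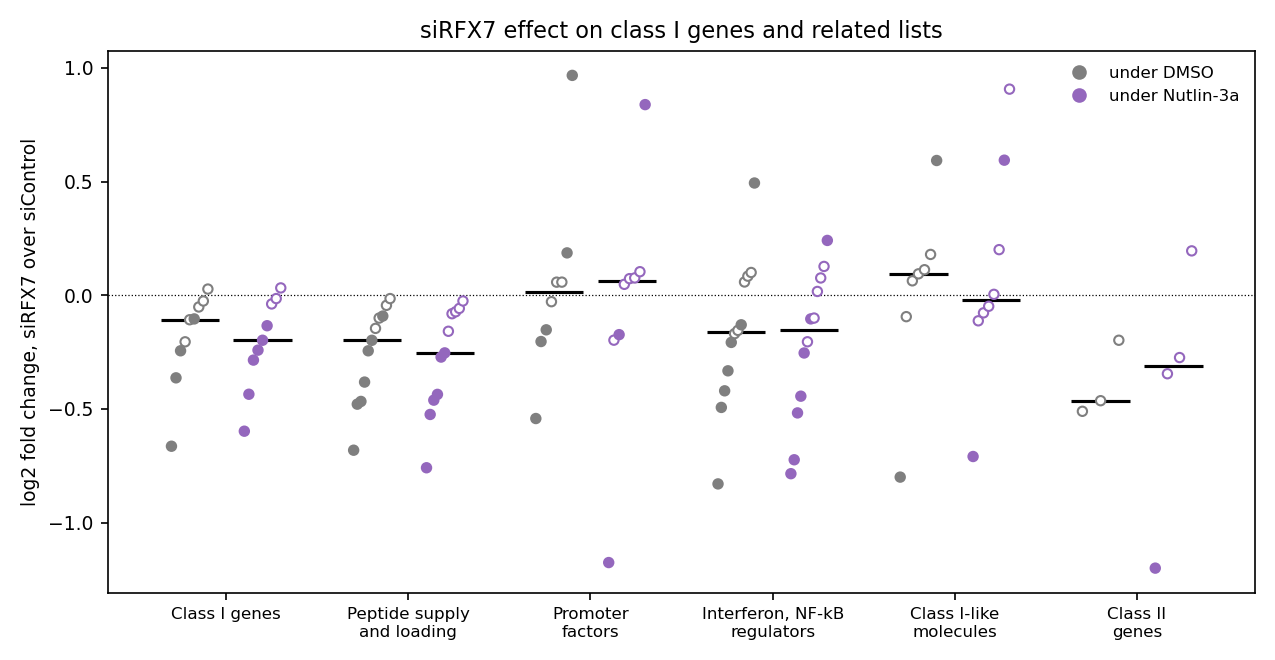
Log2 fold changes of siRFX7 over siControl in the authors' deposited tables, 1 point per gene of the members and the 5 lists, grey under DMSO and purple under Nutlin-3a, filled where the adjusted p is under 0.05, with a line at each median. All 11 peptide supply and loading genes lie below 0 under each treatment, while promoter factors lie on either side.

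Class I-like molecules and class II genes were set beside the members. Of 9 listed class I-like genes, 3 were higher with Nutlin-3a and 0 lower, for either siRNA, in the authors' deposited tables. MR1, which presents vitamin metabolites to MAIT cells, rose by 1.54 ± 0.10 (siControl) and 1.33 ± 0.11 (siRFX7) by the authors' deposited tables. FCGRT, the heavy chain of the neonatal Fc receptor, which also pairs with B2M, was higher by 0.61 ± 0.11 and 0.63 ± 0.13, and ULBP2, a ligand of the NKG2D receptor, by 0.23 ± 0.08 for either siRNA, by the authors' deposited tables. With siRFX7, ULBP2 was higher by 0.59 ± 0.08 under both treatments, and CD1D, which presents lipids, was lower at -0.80 ± 0.28 and -0.71 ± 0.25, in the authors' deposited tables. The level of CD1D was low: with only genes of base mean 100 or more adjusted, 0 class I-like genes were called lower with siRFX7 under either treatment. Of the class II genes, 7 and 5 were listed in the Nutlin-3a tables and 3 and 4 in the siRFX7 tables, and HLA-DQB1 was the 1 called, higher with Nutlin-3a in siControl (1.30 ± 0.17, adjusted p 1.04e-13) and lower with siRFX7 under Nutlin-3a (-1.20 ± 0.18, adjusted p 7.46e-10), in the authors' deposited tables. The highest base mean of a class II gene was 44.4 to 105 per table. With only genes of base mean 100 or more adjusted, the call with siRFX7 was lost and that in siControl was kept.

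The members' median profile over the 4 comparisons was closest to that of C6orf48 (Euclidean distance 0.027 over 4 log2 fold changes of the authors' deposited tables), PHF14 (0.033) and EIF4A2 (0.038), among 12694 genes outside the lists whose base mean reached 100 in every table. The 4 comparisons share libraries, so this is a likeness of 4 values that are not independent. The median profile was 0.09, 0.02, -0.11 and -0.20 and need not describe a single member. TAP1, for example, was at 0.88, 0.96, -0.36 and -0.28 in the same order. Distances of these 3 genes to single members were not computed.

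The members' 3′ UTRs were searched for a heptamer and a hexamer that earlier results of these data had tied to the siRFX7 tables. The heptamer GTATCTA was in 28 of 28 genes lower by over 1 on the log2 scale in both siRFX7 tables, with base means of 100 or more, and in 8.71% of other genes (972 of 11161). RFX7, the gene that the siRNA targets, holds the heptamer and is among these 28. The heptamer was in 0 of 9 members in GENCODE 29, and in NFKB1, JAK1, JAK2, MR1 and CANX among the lists. The hexamer GACGTA was found in 11 of 19 genes past 1 in the higher direction (57.9%), in 5.41% of other genes (604 of 11170) and in 0 of 9 members, and RFXAP is 1 of its carriers among the lists. Both were chosen with these values in view and their shares support nothing on their own, and the part of siRNA sequence in the members' values was not tested.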

How the data were processed

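Polyadenylated RNA of 16 U2OS libraries, 4 in each of 4 groups, was made into stranded mRNA libraries, per the labels' protocols. Per the submitters' processing notes, the authors used bcl2fastq 2.19.1.403, Trimmomatic 0.39, cutadapt 2.10, FastQC 0.11.9, SAMtools 1.10, Picard, featureCounts 1.6.5 and DESeq2 1.20.0 on hg38; the aligner and annotation are not given in the sources used here. The authors deposited 4 tables, each of 2 groups: a base mean, which is a signal in normalised counts averaged over 8 libraries, a log2 fold change and its SE on the log2 scale, a Wald score, and a p-value with its adjusted p-value. Recomputing the score and both p-values from the deposited columns gave the same values. Directions follow the tables' names and were checked on RFX7, CDKN1A and MDM2. The tables hold no single libraries, so the authors' test was used as deposited. For levels, the siRFX7 Nutlin-3a table was rescaled by 1.32 to the siControl table.

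The difference of Nutlin-3a responses was the siRFX7 log2 fold change minus that of siControl, its SE the root of the summed squares, with a two-sided normal p and Benjamini-Hochberg adjustment over 21339 genes. Group levels came from base means and log2 fold changes, per kilobase of principal transcript. Members, lists and motifs were chosen with earlier results of these data known. Genes were named as follows: all 9 members, RFX7, from each list those called with the 3 largest changes in a comparison, RFX5, RFXANK, RFXAP, CIITA and IRF1, and the 3 genes nearest to the members' median profile. Some genes of the lists are counted but not reported here by name. The calculation of the difference of Nutlin-3a responses was tested on simulated data, and the other calculations were not. Python 3.11.15, pandas 2.3.3, NumPy 2.4.6 and SciPy 1.17.1 were used.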

Additional observations from a re-analysis of the deposited data

Results flagged for a closer look

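For these genes of the lists, the Nutlin-3a log2 fold change differed between siRFX7 and siControl cells at an adjusted p under 0.05 over all genes, computed from the authors' deposited tables. RFX5 differed by -0.64 ± 0.06 (SE), with a rise in siControl cells and a fall in siRFX7 cells. IRF1 differed by -0.37 ± 0.10, IFNGR2 by -0.25 ± 0.07 and NFKB1 by -0.24 ± 0.06. HLA-DQB1, a class II gene of low level, differed by -1.01 ± 0.28 (adjusted p 0.0362). At an adjusted p threshold of 0.01, 0 of the regulators and 0 of the class II genes remained called. With only genes of base mean 100 or more adjusted, 0 of the class II genes and 3 of the regulators were called.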

How the results depend on the processing

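No paired analysis was possible because the deposited tables hold no single libraries; leaving out single replicates was not run for the same reason. With a size of at least 0.25 on the log2 scale, the members called went from 6 to 3 (Nutlin-3a in siControl), 2 to 1 (Nutlin-3a in siRFX7), 4 to 2 (siRFX7 under DMSO) and 6 to 3 (siRFX7 under Nutlin-3a). No alternative run reversed the sign of a member's log2 fold change. With all exons merged in place of principal transcripts, the order of levels changed: HLA-C passed B2M, and TAP1 passed TAP2, in siControl cells under DMSO. Of 198 recomputed member values, 181 kept their status, either called or not called, while 6 gained a call and 11 lost it. Most of the 198 were not called to begin with. Of the losses, 9 came with the minimum size of 0.25 and 2 with the threshold of 0.01. HLA-E with Nutlin-3a in siControl passed the test when only genes of base mean 100 or more were adjusted (adjusted p 0.0460) and when centred (0.0120), and HLA-B with siRFX7 under DMSO likewise (0.0431 and 0.0295). TAPBP with Nutlin-3a in siControl (0.0325) and NLRC5 with siRFX7 under DMSO (0.0488) passed when centred. At a threshold of 0.01, B2M with Nutlin-3a in siControl and HLA-C with siRFX7 under DMSO lost theirs. The difference of responses had 0 members called under every alternative run.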
